A study of Homo sapiens with 12 samples.

Results

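Treatment of MEC1 cells that carry the SF3B1 K700E mutation with the splicing modulator H3B-8800 was compared with the vehicle DMSO in 6 of the 12 samples of the series. Of 721551 splicing events in the deposited table, 322704 had 20 or more inclusion plus exclusion reads in all 6 samples and formed the set described here. MEC1 is an established B cell line from chronic lymphocytic leukemia. The 3 K700E clones, numbered 41, 38 and 15b, carry changes at SF3B1 cDNA positions 2098, which gives K700E, and 2106, and each was sampled once with DMSO and once with 75 nM H3B-8800, in both cases for 6 h. Each sample joins 3 technical sequencing runs of 1 stranded poly(A) library. The other 6 samples are MEC1 with wild-type SF3B1 under the same treatments, of which the third replicate carries the change at position 2106 alone; they enter only where K700E and wild type are set side by side. The labels do not say whether the cultures were otherwise independent. The p-values for single events and genes in K700E weigh the treatment difference against its variation over these 3 clones only.

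SF3B1 is the largest subunit of the SF3B complex, the part of the U2 small nuclear ribonucleoprotein that holds the branch point adenosine when an intron is recognised. H3B-8800 is a small molecule that binds this complex. When a branch point is not recognised, the exon behind it can be skipped, the intron can stay in the RNA, or another 3' splice site can be used. K700E is the most common SF3B1 mutation in chronic lymphocytic leukemia and is known for opening cryptic 3' splice sites.

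Of the 322704 events, there were 106048 exons and 89258 introns, and the alternative sites numbered 75717 at 3' and 51681 at 5' ends. Leaving out events that were nearly always or never used (mean level outside 1 to 99%), introns with unbalanced reads at their ends and the first listed site of each alternative-site event left 114116 events in 9779 genes for the test. Exons made up 47426 of them and introns 47380; the alternative sites tested numbered 11807 at 3' and 7503 at 5' ends. The level of an event is the percentage of its reads that include the exon, read into the intron, or use the site. An event was called when limma's moderated test on the log2 odds of inclusion, with the clone as a block, gave an adjusted p (Benjamini-Hochberg, over every tested event) under 0.05 and the group means differed by at least 10 percentage points. By this rule 34847 events were called, 30.5% of those tested. Depth in the 6 samples was 45840233 to 54377623 reads over exon junctions, with a median of 175 to 290 reads per tested event; at 222 reads a level of 50% has an exact binomial 95% interval of 43.2 to 56.8%, which covers counting error only. All 13 B cell markers examined had reads, with a summed level of 5135 to 6504 RPM (spliced reads scaled to the library total) with DMSO and 5285 to 7246 RPM with H3B-8800, against at most 10.5 RPM for 8 T and NK cell markers, 1.72 for 6 myeloid markers and 26.0 for 7 fibroblast and epithelial markers. Of a longer list of 18 T and NK cell genes, 7 averaged 50 or more spliced reads. In that list a TRBC2 exon had 815 to 1685 reads per sample and an LCK intron 519 to 664.

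Sequences of 5 exons and 3 introns that moved far are given first, as short examples of what was skipped or kept. They are shorter than is typical: the median length was 102 nt for exons included less (114 nt for those not called) and 521 nt for introns retained more. They were read 5' to 3' on the transcribed strand from GENCODE release 29 transcripts (GRCh38). In exons the capitals mark the first and last 3 bases, which adjoin the splice sites; in introns they mark the GT and AG at the ends.
TRIM27 exon: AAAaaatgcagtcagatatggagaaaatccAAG
MOSPD2 exon: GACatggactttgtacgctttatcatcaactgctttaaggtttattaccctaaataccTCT
ZNF564 exon: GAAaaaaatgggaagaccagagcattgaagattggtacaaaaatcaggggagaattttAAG
FAS exon: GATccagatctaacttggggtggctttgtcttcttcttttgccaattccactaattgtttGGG
RAD54L exon: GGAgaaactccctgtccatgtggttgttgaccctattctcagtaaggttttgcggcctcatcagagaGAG
VAV1 intron: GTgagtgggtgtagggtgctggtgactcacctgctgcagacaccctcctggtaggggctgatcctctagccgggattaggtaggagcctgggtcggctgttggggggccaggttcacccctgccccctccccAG
RELB intron: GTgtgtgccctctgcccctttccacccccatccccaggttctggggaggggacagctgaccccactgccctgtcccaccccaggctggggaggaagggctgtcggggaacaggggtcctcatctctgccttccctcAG
DDX51 intron: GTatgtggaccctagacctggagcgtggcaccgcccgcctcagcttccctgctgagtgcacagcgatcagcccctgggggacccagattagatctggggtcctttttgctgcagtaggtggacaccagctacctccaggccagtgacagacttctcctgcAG
The exons lie at chr6:28908808-28908840, minus strand (33 nt), chrX:14900575-14900635, plus strand (61 nt), chr19:12528304-12528364, minus strand (61 nt), chr10:89010753-89010815, plus strand (63 nt) and chr1:46260542-46260611, plus strand (70 nt), and the annotation places each within coding sequence. The introns lie at chr19:6828488-6828621, plus strand (134 nt), chr19:45034313-45034450, plus strand (138 nt) and chr12:132141957-132142118, minus strand (162 nt), each between 2 coding exons. GC content was 33.3% in the TRIM27 exon, 36.1% in both the MOSPD2 and the ZNF564 exon, 42.9% in the FAS exon and 50% in the RAD54L exon. The 3 introns were rich in GC, with 65.7% in VAV1, 67.4% in RELB and 61.1% in DDX51.

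Averaged over the tested events, exons were included less and introns retained more in every clone. Mean exon inclusion was 81.3%, 81.3% and 80.7% in the DMSO samples of clones 41, 38 and 15b and 67.6%, 68.1% and 68.5% in their H3B-8800 samples. The mean fell from 81.1% ± 0.36 to 68.1% ± 0.45 (SD, n = 3), a difference of -13.0 points. Mean intron retention was 4.43%, 4.40% and 4.56% with DMSO and 14.7%, 15.3% and 13.1% with H3B-8800. The group mean moved from 4.46% ± 0.088 to 14.4% ± 1.2 (SD, n = 3), a difference of 9.91 points. Both values depend on leaving out events with a mean level outside 1 to 99% over the 6 samples: without that filter, which the treated samples also enter, the differences were -5.94 points for exons and 6.10 for introns. Treated and control samples did not overlap in either measure; with 3 samples against 3 the exact two-sided permutation test cannot go below p = 0.1, which both reached.

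**Figure D1:**
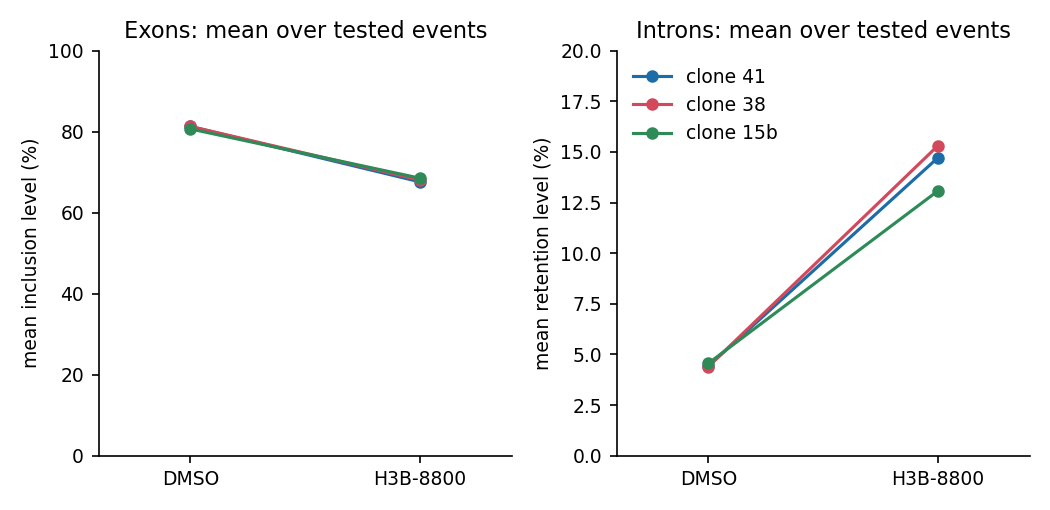
Mean level over the tested exons (left, inclusion in percent) and introns (right, retention in percent) in each K700E sample, with a line joining the DMSO and H3B-8800 samples of 1 clone. Exon means fell from between 80.7 and 81.3% to between 67.6 and 68.5%, and intron means rose from between 4.40 and 4.56% to between 13.1 and 15.3%.

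Calls ran almost wholly in one direction within exons and within introns, which the 10-point limit partly sets. With DMSO 35175 exons stood at 90% or more, with almost no room for such a rise. Introns under 1% (16723), at 1 to 5% (20386) and at 5 to 10% (5413) could not fall that far. Where both directions were open, 1043 of 2421 exons at 10 to 50% and 2653 of 3940 at 50 to 90% were called lower. Of 4410 introns at 10 to 50%, 2575 were called higher. H3B-8800 lowered the inclusion of 18173 of 47426 exons (38.3%) in 6018 genes and raised that of 182 (0.384%). It raised the retention of 14671 of 47380 introns (31.0%) in 4579 genes and lowered that of 155 (0.327%). These shares are of events that passed the filter on the mean level, which the treated samples also enter. Without it, 17688 exons were called as included less, out of the 106048 with 20 or more reads. For introns, 14464 were called as retained more, and 89258 had 20 or more reads before the balance filter. Alternative sites moved less often and in both directions: use rose at 879 of 11807 alternative 3' sites (7.44%) and fell at 424 (3.59%), while at 7503 alternative 5' sites it rose for 275 (3.67%) and fell for 88 (1.17%). The excess of rises rests on leaving out the first listed site of each event: with it, 996 alternative 3' sites rose and 1014 fell, and 320 alternative 5' sites rose and 314 fell. The exons that fell had a median level of 97.7% with DMSO and 69.7% with H3B-8800. The introns that rose had a median of 3.57% with DMSO and 25.7% with H3B-8800. Of the 34847 calls, 34792 had the same direction in all 3 clones and in 34648 the samples of the treatments did not overlap. The calls were made on these same samples, so both counts largely follow from the rule and are a description. Events of 1 gene share reads, so these counts are not counts of independent changes. With a difference of at least 20 points required, 11010 exons were still called as included less and 7656 introns as retained more.

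**Figure D2:**
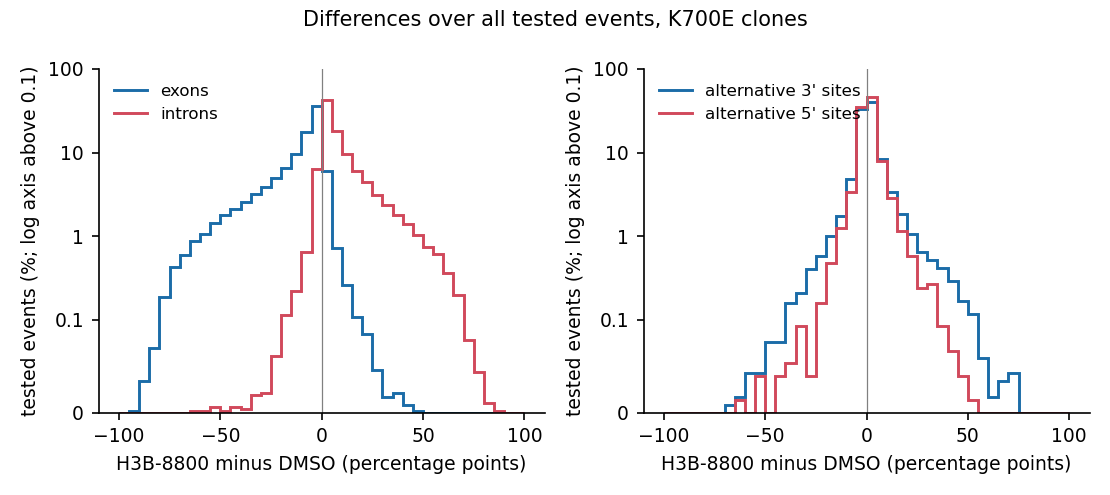
Distribution of the difference in level, H3B-8800 minus DMSO in percentage points (x axis), over all tested exons and introns (left) and alternative 3' and 5' sites (right), as the percentage of tested events per 5-point bin (y axis, logarithmic above 0.1). Exons extend to the left of 0 and introns to its right, with medians of -6.55 and 4.97 points, while both kinds of alternative site centre near 0.

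The differences were similar in the 3 clones. Over all tested exons the per-clone differences correlated with Pearson's r of 0.918 to 0.920 between clones, and over introns with 0.917 to 0.925; these are correlations across events that share genes and libraries, and are given as a description. Median differences were smallest in clone 15b: the exons called as included less had a median difference of -22.6 points there, against -25.4 in clone 41 and -24.5 in clone 38. For the introns called as retained more the medians were 18.1 points in clone 15b, 21.4 in clone 41 and 22.5 in clone 38. A difference of at least 10 points was present in 90.8% of the called exons and 84.5% of the called introns in clone 15b, against 94.5% and 94.5% in clone 41 and 93.4% and 96.2% in clone 38.

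The largest exon changes turned near-constant exons into nearly absent ones. The exon of USP19, which encodes a deubiquitinase, stood at 97.4%, 98.8% and 96.8% with DMSO and 8.23%, 8.18% and 7.64% with H3B-8800 in clones 41, 38 and 15b (chr3:49117437-49117570, minus strand, 134 nt, coding). The mean of this exon went from 97.7% ± 1.0 to 8.02% ± 0.33 (SD, n = 3; log2 odds change -8.92 ± 0.37 SE, limma adjusted p = 0.000193). The largest changes were named only where the groups did not overlap, so their separation is no further result. In SEPT7, which encodes a septin of the cytoskeleton, an exon of 124 nt (chr7:35879596-35879719, plus strand) had 92.4%, 91.4% and 100% with DMSO and 2.64%, 5.44% and 5.5% with H3B-8800 (log2 odds change -8.75 ± 0.65 SE, limma adjusted p = 0.000309). The annotation places this SEPT7 exon outside coding sequence, and it had 38 to 347 reads per sample. The 61-nt exon of MOSPD2, whose product is a membrane protein at organelle contact sites, had 98.95%, 95.4% and 98.5% with DMSO and 11.96%, 5.25% and 9.12% with H3B-8800 (log2 odds change -8.72 ± 0.42 SE, limma adjusted p = 0.000199). TRIM27 encodes a ubiquitin ligase, and its 33-nt exon printed above was read 697 to 1212 times per sample. It had 97.6%, 98.1% and 96.6% with DMSO and 10.98%, 9.09% and 10.5% with H3B-8800 (log2 odds change -8.37 ± 0.31 SE, limma adjusted p = 0.000193).

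The other 4 of the 8 largest decreases behaved in the same way. ARHGAP27, a GTPase-activating protein, went from 97.9% ± 3.7 to 10.7% ± 6.8 at an exon with only 22 to 65 reads per sample, the least well measured of the 8 (adjusted p = 0.000399, limma). SLC12A8, a solute carrier, went from 90.1% ± 4.5 to 3.16% ± 0.11 at a 55-nt exon with 919 to 1369 reads (limma adjusted p = 0.000193). OSBPL7, an oxysterol-binding protein relative, went from 93.01% ± 2.5 to 6.64% ± 3.0 at a 27-nt exon (limma adjusted p = 0.000299). ZNF564, a zinc finger protein, went from 97.3% ± 3.0 to 11.5% ± 2.9 at its 61-nt exon (limma adjusted p = 0.000319). In all 8 exons every treated sample was below 19% and every control above 85%. No annotated exon has exactly the same ends as the tested exons of ARHGAP27, SLC12A8 and OSBPL7.

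Few exons were included more, and their median level with DMSO was 12.7%. A 93-nt exon of PRKAR2A, a regulatory subunit of protein kinase A, is not annotated as an exon and was nearly absent with DMSO. Its levels were 1.7%, 1.72% and 1.59% with DMSO and 45.2%, 40.7% and 47.3% with H3B-8800 (chr3:48751980-48752072, minus strand; log2 odds change 5.46 ± 0.31 SE, limma adjusted p = 0.000218). An exon of AHRR, the repressor of the aryl hydrocarbon receptor, also without an exact match in the annotation, went from 8.297% ± 2.7 to 54.3% ± 9.4 (limma adjusted p = 0.000713). In HERC2, a large ubiquitin ligase, a 111-nt coding exon went from 47.5% ± 12 to 90.04% ± 3.0, with clone 41 lower than the others under DMSO (33.1% against 55.7% and 53.6%; limma adjusted p = 0.00165).

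The leading introns went from nearly always removed to nearly always kept. MAST3 encodes a serine/threonine kinase, and a 116-nt intron between coding exons (chr19:18124149-18124264, plus strand) had 1.51%, 1.31% and 0.62% with DMSO and 81.1%, 96.7% and 88.3% with H3B-8800 (log2 odds change 9.10 ± 0.59 SE, limma adjusted p = 0.00025). KRI1, a ribosome assembly factor, had 5.39%, 4.88% and 5.65% with DMSO and 85.4%, 90.1% and 85.6% with H3B-8800 at an intron of 2091 nt (chr19:10562838-10564928, minus strand; log2 odds change 6.87 ± 0.34 SE, limma adjusted p = 0.000199). DDX51 encodes an RNA helicase, and the 162-nt intron printed above had 5.47%, 9.73% and 9.39% with DMSO and 82.8%, 92.3% and 88.3% with H3B-8800 (log2 odds change 6.41 ± 0.32 SE, limma adjusted p = 0.000199). Treated and control samples of all 3 do not overlap, since the named introns were chosen that way. PRPF40B, itself a splicing factor of the U1 particle, went from 3.74% ± 0.70 to 83.2% ± 2.2 at a 239-nt intron (limma adjusted p = 0.000269). CELSR3, an atypical cadherin, went from 4.96% ± 1.6 to 88.4% ± 7.4, with 24 to 50 reads per sample (limma adjusted p = 0.000546). PPP1R37, a regulatory subunit of protein phosphatase 1, went from 8.72% ± 4.1 to 89.8% ± 3.6 (limma adjusted p = 0.000207). NKD2, an inhibitor of WNT signalling, went from 5.23% ± 1.7 to 85.6% ± 2.9 and C14orf79 went from 5.56% ± 3.1 to 84.9% ± 7.5 (limma adjusted p = 0.000369 and 0.000326).

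Of the 155 introns retained less, the largest decrease was in RSRP1, which encodes an arginine- and serine-rich protein. Its intron of 1516 nt (chr1:25243634-25245149, minus strand) had 85.8%, 89.5% and 84.1% with DMSO and 23.5%, 21.6% and 22.2% with H3B-8800 (log2 odds change -4.48 ± 0.29 SE, limma adjusted p = 0.000247). MBNL1, a regulator of alternative splicing, went from 79.7% ± 6.1 to 23.6% ± 3.6 at an intron of 8493 nt (limma adjusted p = 0.00106). TTN-AS1, a non-coding RNA antisense to titin, went from 82.5% ± 5.1 to 27.8% ± 21, where the treated clones spread from 11.3 to 50.9% (limma adjusted p = 0.00173). The sources used here do not say whether reads were counted by strand, so reads of TTN-AS1 and of titin cannot be told apart. MBNL1 and RSRP1 thus ended near the same level of retention after starting at 79.7 and 86.4%.

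**Figure D3:**
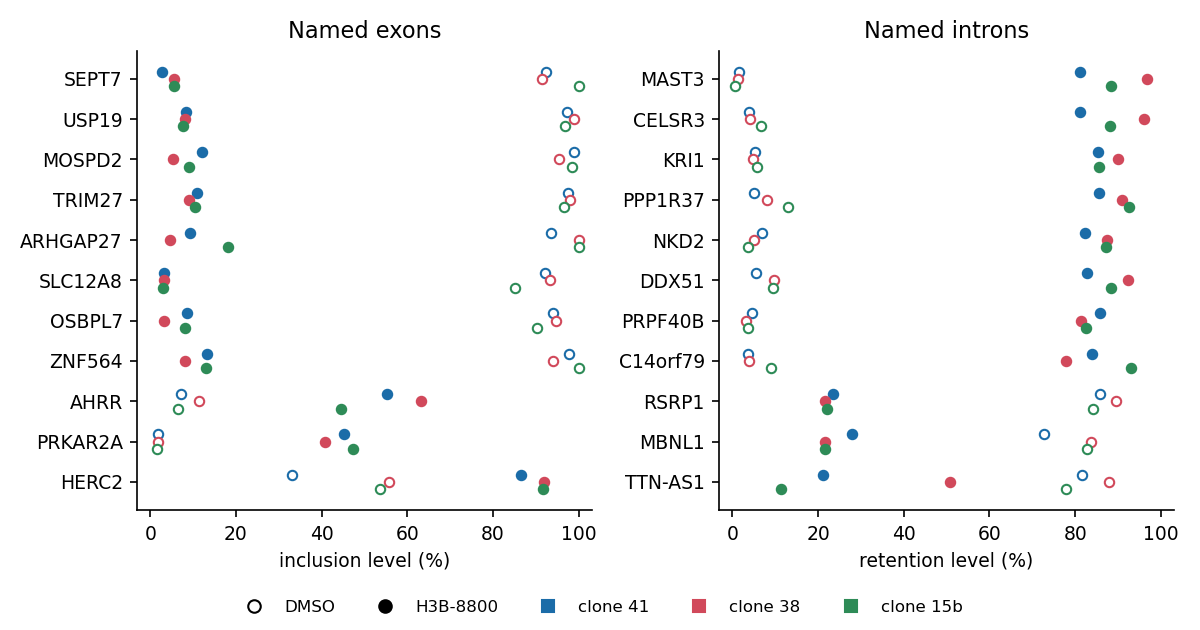
Level in percent (x axis) of each named exon (left) and intron (right) in the 6 K700E samples; open circles are DMSO, filled circles H3B-8800, and colours the clones. The 8 exons at the top moved from above 85% to below 19%, and the 8 introns at the top from below 14% to above 77%, in every clone.

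Alternative 3' sites, which lie next to the branch point, gave some near-complete switches. In DBF4, the activating subunit of the CDC7 replication kinase, a 3' site that adds 61 nt had 3.29%, 2.33% and 2.16% with DMSO and 73.3%, 80.5% and 74.6% with H3B-8800 (log2 odds change 6.49 ± 0.43 SE, limma adjusted p = 0.000255). In C7orf43 a site went from 21.6% ± 9.3 to 96.2% ± 2.7 (limma adjusted p = 0.000758). ANKRD33B, an ankyrin repeat protein, went from 0.987% ± 0.95 to 72.8% ± 2.8 and KIAA0430, a regulator of meiosis and RNA, went from 3.797% ± 1.1 to 75.2% ± 13 (limma adjusted p = 0.000225 and 0.000558). Use fell at a site of RBL1, a relative of the retinoblastoma protein, from 92.9% ± 2.8 to 27.4% ± 1.3 and at a site of the kinase gene MAP4K5 that changes the exon by 3 nt, from 84.5% ± 2.7 to 22.8% ± 8.3 (limma adjusted p = 0.000462 and 0.000705). Among alternative 5' sites, the named events were in the ribosomal protein genes RPSA, RPL17 and RPS28 and in TRMT6. A 5' site of RPSA rose from 7.54% ± 2.2 to 59.1% ± 6.8 while the other site of the same event fell from 92.5% ± 2.2 to 40.5% ± 6.4; the sites are counted against each other, so this is 1 switch (limma adjusted p = 0.000663 and 0.000632). RPL17 rose from 42.01% ± 3.9 to 89.2% ± 3.8, TRMT6, which encodes a transfer RNA methyltransferase subunit, rose from 4.73% ± 0.91 to 51.1% ± 4.6, and RPS28 fell from 79.2% ± 5.2 to 17.1% ± 4.2 (limma adjusted p = 0.00109, 0.000319 and 0.000357). Ribosomal protein genes have many processed pseudogenes, and HERC2 and SEPT7 named above have near-identical copies, so reads of these genes may be shared with other loci.

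Among exons present in at least 90% of transcripts with DMSO, shorter exons were lost more often. Of these 35175 exons 41.2% were called as included less; the share was 52.3% of 199 exons of 3 to 27 nt, 50.3% of 2024 exons of 28 to 50 nt, 43.6% of 11412 exons of 81 to 120 nt and 26.0% of 1454 exons of 251 nt or more. Whether the exon keeps the reading frame made little difference: 40.3% of exons with a length that is a multiple of 3 were called and 41.6% of the others. GC content of the exon made little difference either, with 39.8 to 43.4% called over 4 classes. By the length of the flanking introns the share ran from 37.7% (upstream intron of 20001 nt or more) to 46.03% (downstream intron of 101 to 500 nt). Exons at 50 to 90% with DMSO were called most often, 2653 of 3940 (67.3%), while exons under 10% cannot fall by 10 points. Exons above 99% with DMSO were tested only if lower with H3B-8800, since the filter on the mean level covers both treatments.

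Introns showed a wider range with length than exons did. Retention rose in 46.1% of 6770 introns of 101 to 250 nt, 34.02% of 7304 introns of 501 to 1000 nt, 20.5% of 9544 introns of 2001 to 5000 nt and 4.49% of 690 introns of 20001 nt or more. The median length was 521 nt for introns retained more and 1318 nt for those not called. Introns at 5 to 50% with DMSO were called most often, 55.5% of those at 5 to 10% and 58.4% of those at 10 to 50%. The share was 14.6% under 1%, 31.9% at 1 to 5% and 34.6% of the 448 introns at 50% or more. These classes are not on equal terms. The filter asks for a mean of at least 1% over both treatments. The 16723 introns under 1% with DMSO were thus tested only because their H3B-8800 levels were higher. The fixed limit of 10 points also asks for a larger relative rise from a low level. For the 5187 introns (10.9% of those tested) that an annotated transcript reads through, the sequence was available. In this minority the share called rose with GC content from 29.1% of 915 introns under 40% GC to 59.5% of 1783 introns at 60% or more. The same order held among those of up to 500 nt (29.9 to 59.9%) and those of 501 to 2000 nt (30.1 to 55.9%). The 3' ends differed little: the 20 bases before the last 3 were 75.0% pyrimidine at the median in both the 2589 introns retained more and the 2559 not called of at least 60 nt, and the letters CTNAC, in the sense direction, occurred in the 57 bases before the last 3 in 28.2% and 32.0%.

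**Figure D4:**
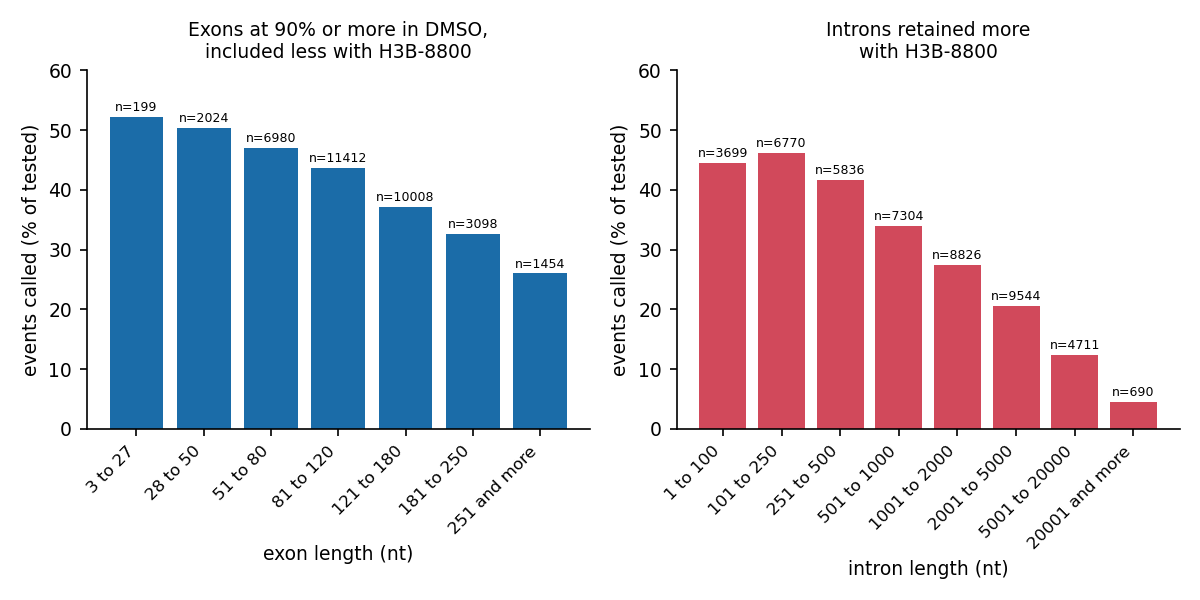
Percentage of tested events called (y axis) by length class in nt (x axis), for exons at 90% or more with DMSO that were included less (left) and introns retained more (right); n is the number tested. The share falls from 52.3% for the shortest to 26.0% for the longest exons, and from 46.1% at 101 to 250 nt to 4.49% for the longest introns.

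A called event was found in 7299 of the 9779 genes with a tested event (74.6%). Exon loss touched 6018 genes and intron retention 4579, and 3443 genes had both, which is 57.2% of the former and 75.2% of the latter. Among 4510 genes with at least 10 tested events the median gene had 30.0% of its events called, with quartiles of 18.9 and 41.7%. In CLEC17A, a C-type lectin of B cells, all 13 tested events were called (6 exons included less and 7 introns retained more), and in POLR3D, a subunit of RNA polymerase III, all 12. In contrast 195 of the 4510 genes had no call at all.

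Genes of the splicing machinery had called events at a lower share than all genes together. In the list of the U2 particle and branch point recognition, 19 of 76 tested exons were included less (25%) and 29 of 125 tested introns were retained more (23.2%); both are below the 38.3 and 31.0% of all events, and no test of that difference was made. The median difference was -4.40 points over its exons and 4.07 points over its introns, against -6.55 and 4.97 over all events. None of the 3 tested events of SF3B1, the target, was called, since their differences stayed under 10 points. Its 56-nt alternative exon had 1.95%, 2.01% and 1.64% with DMSO and 0.33%, 0.47% and 0.34% with H3B-8800 (limma adjusted p = 0.000407), and an intron of 1839 nt went from 8.36% ± 1.3 to 2.71% ± 0.10 (limma adjusted p = 0.00112). U2SURP, a U2-associated protein, lost a 44-nt exon from 93.7% ± 0.55 to 28.4% ± 11. U2AF2, the large subunit of the factor that binds the pyrimidine tract, kept a 294-nt intron from 4.0% ± 0.23 to 54.97% ± 2.4. HTATSF1, a partner of the SF3B complex, lost a 48-nt exon from 99.8% ± 0.14 to 49.99% ± 4.6, and DDX39B, the helicase that helps U2 to bind, lost a 128-nt exon from 95.05% ± 0.69 to 45.3% ± 3.3 with 4917 to 7294 reads per sample (limma adjusted p of 0.000193 to 0.000251 for these 4).

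In the rest of the core spliceosome 77 of 227 tested exons were included less (33.9%) and 83 of 397 tested introns were retained more (20.9%). These shares, and those of the next list, stand beside 38.3% of exons and 31.0% of introns over all genes. No difference from these was tested. DHX35, an RNA helicase, lost an 82-nt exon from 85.6% ± 8.0 to 9.24% ± 1.4, and LUC7L, a U1-associated protein, a 63-nt exon from 97.3% ± 0.90 to 30.7% ± 1.4. DHX38, the helicase for the second step of splicing, kept a 354-nt intron from 22.7% ± 1.8 to 79.5% ± 3.5, and PRPF38A lost a 27-nt exon from 99.4% ± 0.12 to 48.9% ± 6.8. Among SR proteins, hnRNPs and splicing kinases, which set exon choice, 80 of 228 tested exons were included less (35.1%) and 73 of 262 tested introns were retained more (27.9%). The largest change was in RBM5, a regulator of apoptotic gene splicing, whose 85-nt exon (chr3:50110379-50110463, plus strand) had 87.3%, 88.95% and 83.4% with DMSO and 3.01%, 2.37% and 3.1% with H3B-8800 (log2 odds change -7.78 ± 0.31 SE, limma adjusted p = 0.000193). CLK2, a kinase that phosphorylates SR proteins, lost an 88-nt exon from 84.4% ± 5.9 to 12.9% ± 2.1. SRRM2, a scaffold of nuclear speckles, went from 98.8% ± 0.75 to 27.8% ± 1.4 and SRPK2, another SR protein kinase, from 98.9% ± 0.58 to 28.2% ± 4.1. The tested exons of LUC7L and SRRM2 have no exact match in the annotation.

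Among apoptosis regulators 75 of 166 tested exons were included less (45.2%) and 36 of 137 tested introns were retained more (26.3%). The exon share lay above the 38.3% over all exons and the intron share below the 31.0% over all introns. Neither difference was tested. FAS is a death receptor, and the 63-nt exon printed above encodes its transmembrane part; without it the receptor is secreted. It had 93.2%, 86.2% and 90.6% with DMSO and 13.4%, 13.3% and 20.9% with H3B-8800 (log2 odds change -5.65 ± 0.35 SE, limma adjusted p = 0.000236). Of 7 tested FAS exons 5 were called, all lower, among them a 25-nt exon that went from 99.2% ± 0.67 to 31.5% ± 4.0. MCL1 is an anti-apoptotic BCL2 relative on which B cell cancers often depend, and its middle exon of 248 nt (chr1:150578244-150578491, minus strand) is left out of the short isoform. The exon had 98.4%, 98.9% and 97.4% with DMSO and 76.04%, 74.2% and 67.5% with H3B-8800 (log2 odds change -4.47 ± 0.25 SE, limma adjusted p = 0.000215), and the intron of 351 nt before it went from 8.52% ± 0.90 to 22.1% ± 4.2 (limma adjusted p = 0.00208). The intron behind it went from 4.19% ± 0.65 to 6.45% ± 2.1 and was not called (limma adjusted p = 0.0587). BCL2L2, another anti-apoptotic member, kept a 616-nt intron from 14.8% ± 3.4 to 90.9% ± 7.8. RIPK1, the kinase of the death receptor complex, lost a 77-nt exon from 96.7% ± 1.4 to 31.2% ± 7.3, and BMF, a pro-apoptotic BH3-only protein, kept an intron of 2167 nt outside the coding part from 22.8% ± 1.4 to 81.8% ± 3.3.

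The shares called over all genes were 38.3% of exons and 31.0% of introns. B cell receptor signalling lay a little below both, and NF-kappaB and Toll-like receptor signalling above both. Neither difference was tested. In B cell receptor signalling 122 of 346 tested exons were included less (35.3%) and 109 of 354 tested introns were retained more (30.8%). VAV1, an exchange factor downstream of the receptor, kept the 134-nt intron printed above with 9.03%, 5.47% and 8.64% with DMSO and 78.3%, 73.2% and 80.7% with H3B-8800 (log2 odds change 5.36 ± 0.33 SE, limma adjusted p = 0.000233). PTPN6, an inhibitory phosphatase, lost a 155-nt exon from 97.8% ± 0.34 to 37.2% ± 2.0, FYN, a SRC family kinase, a 41-nt non-coding exon from 77.2% ± 5.1 to 11.1% ± 1.6, and BCL10, an adaptor between the receptor and NF-kappaB, used a 3' site less, from 92.5% ± 0.63 to 31.5% ± 3.0. For NF-kappaB and Toll-like receptor signalling 115 of 239 tested exons were included less (48.1%) and 130 of 298 tested introns were retained more (43.6%). Both lay above the shares over all events. Of its 48 tested genes 47 had a call, against 74.6% of all genes. That share also depends on how many events were tested per gene, and the difference was not tested. CHUK, the kinase IKK-alpha, lost a 125-nt exon from 98.7% ± 0.26 to 23.6% ± 1.6. RNF31, a ligase of linear ubiquitin chains, kept a 529-nt intron from 11.5% ± 1.7 to 83.8% ± 1.2, and RELB, an NF-kappaB subunit, the 138-nt intron printed above, from 8.42% ± 4.0 to 79.6% ± 3.1.

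Shares called in genes of DNA repair, the cell cycle, chromatin and mRNA decay are to be read against those over all genes. Over all genes 38.3% of exons were included less, 31.0% of introns were retained more, and 74.6% of genes had a call. The share of genes with a call also depends on how many events were tested per gene. No difference from these shares was tested. In DNA repair 387 of 915 tested exons were included less (42.3%) and 249 of 802 tested introns were retained more (31.05%), in 90 of 102 genes. RAD54L, a motor of homologous recombination, had 93.9%, 97.6% and 91.5% with DMSO and 7.11%, 9.94% and 9.61% with H3B-8800 at its 70-nt exon (log2 odds change -7.57 ± 0.42 SE, limma adjusted p = 0.000218). RAD52, an annealing factor, lost a 68-nt exon from 98.9% ± 1.1 to 15.5% ± 9.9 and FANCM, a Fanconi anemia helicase, an 87-nt exon from 94.7% ± 2.5 to 19.2% ± 1.9, while ALKBH3, a demethylase of alkylated DNA, kept a 353-nt intron from 3.34% ± 2.0 to 81.9% ± 3.2. In cell cycle and mitosis 289 of 713 tested exons were included less (40.5%) and 261 of 855 tested introns were retained more (30.5%). NCAPD3, a condensin subunit, lost a 62-nt exon from 94.8% ± 0.94 to 15.3% ± 4.0, GINS1, of the replicative helicase, a 99-nt exon from 89.1% ± 0.94 to 15.1% ± 4.9, and KIF18B, a mitotic kinesin, kept a 489-nt intron from 1.5% ± 0.37 to 79.1% ± 5.6. Among chromatin regulators mutated in lymphoid cancers 231 of 517 tested exons were included less (44.7%) and 166 of 530 tested introns were retained more (31.3%), in 51 of 53 genes. KMT2C, a histone H3 methyltransferase, lost a 64-nt exon from 97.7% ± 0.58 to 19.3% ± 2.0, SETD5 a 59-nt exon from 98.9% ± 0.19 to 23.04% ± 3.4, CREBBP, an acetyltransferase, a 45-nt exon from 84.04% ± 8.4 to 10% ± 1.4, and EED, a Polycomb subunit, an 82-nt exon from 98.4% ± 0.34 to 24.9% ± 2.6. In nonsense-mediated decay and mRNA export 154 of 417 tested exons were included less (36.9%) and 117 of 464 tested introns were retained more (25.2%); SMG5, a decay factor, lost a 138-nt exon from 91.4% ± 0.99 to 27.6% ± 1.1, and SMG9 kept an intron of 3101 nt from 9.16% ± 2.0 to 76.9% ± 0.60.

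In 4 other lists the share of introns called was below the 31.0% over all introns. In cytosolic ribosomal protein genes 3 of 15 tested exons were included less (20%) and 1 of 77 tested introns were retained more (1.299%), with a median over introns of 0.92 points; of 175 alternative sites in these genes, which include the switches of RPSA, RPL17 and RPS28, 10 were used more and 8 less. In the respiratory chain 18 of 109 tested exons were included less (16.5%) and 12 of 116 tested introns were retained more (10.3%), as at exons of SDHA, a subunit of succinate dehydrogenase, from 96.7% ± 0.50 to 65.7% ± 2.6, and NDUFB5, a subunit of complex I, from 80.5% ± 3.5 to 52.9% ± 6.2. Among stress and immediate early genes 22 of 81 tested exons were included less (27.2%) and 17 of 125 tested introns were retained more (13.6%), with a large change in HERPUD1, a gene of endoplasmic reticulum stress, at a 72-nt exon from 97.3% ± 0.58 to 29.1% ± 1.8. In the proteasome 51 of 131 tested exons were included less (38.9%) and 47 of 232 tested introns were retained more (20.3%); the exon share was close to that over all exons, and a large decrease was in ADRM1, a ubiquitin receptor, at a 103-nt exon from 75.97% ± 6.0 to 10.3% ± 1.2. The differences between lists were not tested, and the lists differ in the lengths and reads of their introns.

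**Figure D5:**
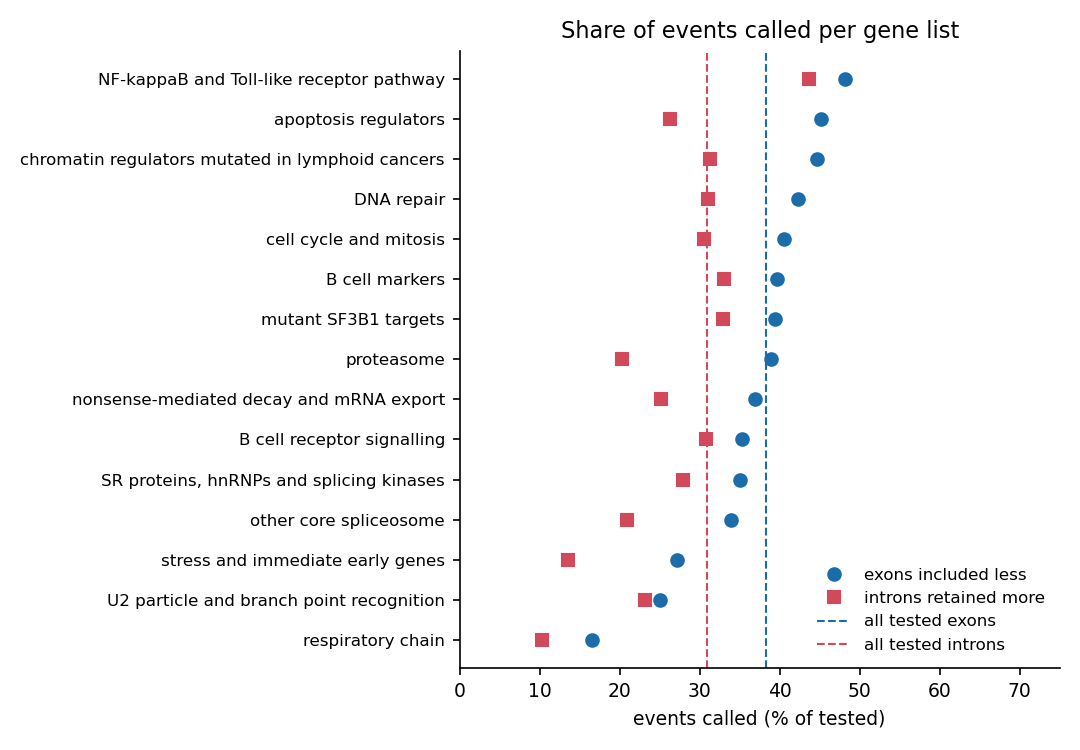
Percentage of tested exons included less (circles) and tested introns retained more (squares) per gene list, for lists with at least 50 tested exons and introns; dashed lines are the shares over all tested exons (38.3%) and introns (31.0%). The NF-kappaB and Toll-like receptor list lies highest with 48.1 and 43.6%, and the respiratory chain lowest with 16.5 and 10.3%.

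The cryptic 3' sites for which mutant SF3B1 is known were still used under H3B-8800. In 39 genes of the list of mutant SF3B1 targets with a measured 3' site, 20 had a site used at least 10 points more in K700E than in wild type with DMSO; as these sites were chosen on the same K700E DMSO samples, the levels are a description. Their median level was 3.27% in wild type with DMSO, 58.3% in K700E with DMSO and 54.6% in K700E with H3B-8800. Site by site, the change with H3B-8800 had a median of 3.25 points over the 18 sites that were tested, with 11 higher and 7 lower. ORAI2, a calcium channel subunit, stood at 2.57% ± 1.3 in wild type and went from 74.8% ± 5.4 to 81.1% ± 4.5 with H3B-8800 in K700E. MAP3K7, the kinase TAK1, stood at 6.40% ± 1.8 in wild type and went from 70.7% ± 4.2 to 60.8% ± 9.0. DPH5, of diphthamide synthesis, stood at 0.71% ± 0.65 and went from 66.7% ± 2.6 to 67.2% ± 8.3. MFSD9 (85.6% ± 3.4 to 94.6% ± 2.3), ANKHD1 (81.5% ± 3.1 to 89.2% ± 0.38), GCC2 (73.6% ± 4.7 to 67.9% ± 5.9) and MTERF2 (90.5% ± 2.3 to 94.9% ± 3.9) also stayed high. Of the 18 sites that were tested, 1 was called lower and 1 higher. The site of TTI1, a co-chaperone of PI3-kinase-like kinases, was the lower one, from 62.7% ± 5.2 to 19.5% ± 6.1, and that of SKIV2L, an exosome helicase, the higher one, from 41.6% ± 4.3 to 67.4% ± 6.9 (n = 3; limma adjusted p = 0.00264 and 0.0342). Over the 43 genes of the whole target list with a tested event, 104 of 264 tested exons were included less (39.4%) and 93 of 283 tested introns were retained more (32.9%), close to the shares over all events.

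Spliced reads per gene, the reads that join the ends of each listed intron, fell more often than they rose. A read across a skipped exon or inside a retained intron is not counted, so this measure is not the transcript level, and in bulk samples fewer cells and less RNA per cell cannot be told apart. Of 10268 genes averaging 50 or more such reads, 1548 had fewer (15.1%) and 194 more (1.89%) by at least 2-fold at an adjusted p under 0.05 (limma). This split depended on the scaling: on the RPM scale the median gene changed by -0.22 on the log2 scale, and with median-ratio size factors, where it changed by 0.05, 966 genes had fewer and 522 more. The largest rises were in DCHS1, a protocadherin, with 2, 2 and 12 reads with DMSO and 150, 87 and 188 with H3B-8800 (log2 fold change 5.16, limma adjusted p = 1.69e-06), and in LINC01393, a non-coding RNA, with 6, 5 and 3 reads with DMSO and 134, 46 and 173 with H3B-8800 (log2 fold change 4.53, limma adjusted p = 8.16e-06). These genes had few or very few reads in the controls. OVGP1, an oviduct glycoprotein, GZF1, a zinc finger repressor, and CMYA5, a muscle protein, rose by 4.34, 4.21 and 4.16 on the same scale. The largest falls were in AC091729.9, with 130, 84 and 83 reads with DMSO and 3, 4 and 0 with H3B-8800 (log2 fold change -5.44, limma adjusted p = 1.17e-05), and in TPH1, tryptophan hydroxylase, CHRFAM7A, a fusion gene of the nicotinic receptor, and the antisense RNAs ASB16-AS1 and MZF1-AS1, with log2 fold changes of -4.83, -4.71, -4.71 and -4.18. Reads of the antisense RNAs may include those of the genes opposite, and reads of CHRFAM7A those of its parent gene.

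Genes of the lists moved in both directions. SF3B1 had 62795, 51267 and 55437 reads with DMSO and 81767, 76531 and 78898 with H3B-8800 (log2 fold change 0.66, limma adjusted p = 2.34e-07). Reads of FAS rose with a log2 fold change of 1.21 (limma adjusted p = 1.59e-07), while MCL1 had 3533, 2216 and 3067 reads with DMSO and 3538, 2098 and 2994 with H3B-8800 (log2 fold change 0.13, limma adjusted p = 0.0941). Splicing factors rose in several cases: PRPF39 by 1.49, SRRM1 by 1.33, RBM39 by 1.28 and SON by 1.18, whereas HNRNPU and U2SURP had -1.28 and -1.20. In the NF-kappaB and Toll-like receptor list 11 of 47 genes had fewer spliced reads, led by the receptor CD40 (-1.77), the adaptors TRAF1 (-1.74) and MYD88 (-1.67) and the TAK1 partner TAB1 (-1.60); with median-ratio size factors 6 had fewer and 7 more. In DNA repair 11 of 102 genes had fewer and 0 more (8 and 6 with median-ratio size factors), led by the helicase RECQL5 (-2.65) and the damage sensor DDB2 (-2.10), and in cell cycle and mitosis 15 of 112 had fewer and 1 more (8 and 9 with median-ratio size factors), led by the kinetochore gene CENPK (-2.60), the kinase PKMYT1 (-2.03) and the replication gene CDC45 (-1.83). These counts stand beside the 15.1% of all genes with fewer spliced reads, and no difference from it was tested. Ribosomal protein genes had a median of 0.42 over 79 genes, and 0.69 with median-ratio size factors. The values named in this paragraph kept their sign with both scalings, and those of U2SURP no longer reached 2-fold with median-ratio size factors.

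The same treatment in wild-type MEC1 gave differences of similar size. Over the 45958 exons tested with 20 reads in all 12 samples the median difference was -6.55 points in K700E and -6.95 in wild type, and over 45987 introns 4.93 and 4.83 points. A test of the difference between the genotypes in limma, with 12 samples as 4 groups, called 10 of 109092 events (0.00917%), while 7.23% had an unadjusted p under 0.05. The largest was an intron of LTN1, a ubiquitin ligase of stalled ribosomes, retained at 14.6% ± 3.9 in K700E and 58.8% ± 4.7 in wild type under H3B-8800 (SD, n = 3), from 3.20% ± 0.33 and 2.07% ± 0.77 with DMSO (limma adjusted p = 0.0351). With the clone as a replicate block, limma called 0 of these events.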

How the data were processed

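Poly(A) RNA of 12 MEC1 samples was sequenced as stranded libraries, and the authors deposited 1 table of splicing events on hg38. Per the file headers, it holds a percent value (the inclusion level) and a quality text per event and sample. No header names the 2 numbers that end this text; they were taken as inclusion and exclusion reads, from the table's vast-tools-like layout, and the share of the first in their sum lay within 1 point of the deposited percent at all 4598029 values compared (10 or more reads). The submitters' processing notes name cutadapt 2.4; which aligner and event caller were run is not given in the sources used here. In addition, 72 columns of single technical runs exist and were left out.

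Read numbers were taken from the quality text. Events needed 20 reads in all 6 K700E samples, a mean level of 1 to 99%, and, for introns, no more than 3 samples with a balance p-value (as deposited by the authors) under 0.05. limma 3.58.1 in R 4.3.3 was fitted to log2 odds with 0.5 reads added and the clone as block, since samples with 1 clone number come from the same clone; deviations from the group means correlated at 0.025 to 0.053 within clones and at -0.040 to -0.010 between clones. Spliced reads per gene used log2 RPM (reads scaled to the library's spliced reads) with 0.5 reads added. Replicates differed beyond sampling noise (chi-square per degree of freedom of at least 70.8 in K700E). The fits were tested on simulated data. Alternatives without the block, with other read minimums, added reads, scales, weights, filters and scalings, and leaving out each clone were run.

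Members and gene lists were chosen with earlier results of these data known. Named events are the largest called differences, 1 per gene and not on chromosome 8, with 1 direction in all 3 clones and no overlap of the groups: 8 decreases and 3 increases of exons, 8 increases and 3 decreases of introns, 4 and 2 of alternative 3' sites, 3 and 2 of alternative 5' sites, up to 4 genes per list, the 5 largest rises and falls of spliced reads, up to 4 differences from wild type in each direction, the 8 mutant SF3B1 sites that differ most between genotypes, and MCL1, FAS and SF3B1; other named genes were chosen after their values were seen.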

Additional observations from a re-analysis of the deposited data

Results flagged for a closer look

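The effect of H3B-8800 differed between K700E and wild type in limma's test of the difference for 10 events, and each is given as the K700E effect minus the wild-type effect in percentage points. An intron of LTN1 rose by 11.4 points in K700E and by 56.7 in wild type, a difference of -45.3 (adjusted p = 0.0351). Exons of SOGA1 and TAF2 gave differences of -17.0 and -12.3 points, and an alternative 3' site of EDRF1 gave -24.0. The differences were 16.6 points for an exon of NME7 and 15.4 for an exon of LNPK, both of which fell further in wild type. Alternative 3' sites of ACSF3, ATXN7, NPLOC4 and NOD1, listed at 0 in every wild-type sample, gave 17.3, 16.4, 12.8 and 12.2 points. Adjusted p-values (limma) ran from 0.0132 for NPLOC4 to 0.0496 for NME7. The number of such events changed with the settings given below, and 0 were called with the replicate block.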

How the results depend on the processing

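Without the replicate block 18266 exons were included less, 192 more, 14811 introns were retained more and 165 less, so the pairing by clone moved no count by over 1.5 times; spliced reads then gave 153 genes with more and 1314 with fewer. When 20 points were required, the calls were 11010 exons less and 78 more, 7656 introns more and 54 less, 390 and 183 alternative 3' sites more and less, and 95 and 29 alternative 5' sites. Weights from the read numbers gave 139 alternative 5' sites used less. No filter on intron balance gave 252 introns retained less. Counting the first site of each event gave 996 rises and 1014 falls at alternative 3' sites, and 320 and 314 at alternative 5' sites. No filter on reads gave 364 genes with more and 2882 with fewer spliced reads, and median-ratio size factors 522 and 966. Leaving out each clone in turn gave 139 to 147 exons more, 17057 to 17937 less, 12972 to 15033 introns more, 103 to 107 less, 758 to 789 alternative 3' sites more, 358 to 371 less, 203 to 234 alternative 5' sites more, 58 to 64 less, and 188 to 224 genes with more and 1480 to 1696 with fewer spliced reads. Introns retained less numbered 103 without clone 38, and alternative 5' sites used less 58 without clone 41. Mean exon inclusion then changed by -13.5 to -12.7 points and mean intron retention by 9.40 to 10.6, but by -5.94 and 6.10 with no filter on the mean level.

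The 10 events that differed from wild type were the least stable result: 0 with the replicate block (8309 at an unadjusted p under 0.05), 20 with 2 reads added, 724 on percentage points, 1 with read weights, and 0 to 4 without single clones (1, 0 and 2 without K700E clones 41, 38 and 15b, and 4, 0 and 1 without wild-type replicates 1, 2 and 3). The cause was not tested. Named events kept their direction in all 1446 comparisons with an alternative and lost the call in 17, 14 of them in CDH1 and COL1A1, not described here, and 1 each in GNLY, MCL1 and ATP5F1. At 20 reads, 3 reads are 15% of an event, which limits how low a level can be told from 0.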

Other observations

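Among the 195 genes with at least 10 tested events and no call (limma), the most events were tested in WDR61, a subunit of the PAF1 complex and of the SKI complex, with 23, in TKFC, a dihydroxyacetone kinase, with 22, and in DPP3, a dipeptidyl peptidase, and ERAP2, an aminopeptidase of antigen processing, with 21 each. The largest absolute difference at any event was 5.11 points in WDR61, 8.48 in TKFC, 6.76 in DPP3 and 7.30 in ERAP2. These genes were chosen after their values were seen.

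Exon loss and retention of the neighbouring introns were only loosely joined. For 11588 exons at 90% or more with DMSO whose flanking introns were both tested, the upstream intron was called as retained more in 43.0% of the 5644 exons included less and in 39.2% of the 5944 others. For the downstream intron the shares were 39.5 and 38.3%. Of the exons included less, 48.2% had neither flanking intron called and 30.8% had both. Of the other exons, 47.5% had neither and 25.1% had both. An exon and its neighbouring introns share reads, so the shares are given as a description with no test.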
